A study of Mus musculus with 6 samples.

Results

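The epidermal growth factor (EGF) family ligands and their ERBB receptors were examined in bulk RNA sequencing of newborn mouse epidermis. The members were the ligand genes Epgn, Areg, Ereg, Hbegf, Tgfa, Nrg1 and Nrg4 and the receptor genes Egfr, Erbb2 and Erbb3. They were listed by name, and all 10 were found by Ensembl ID among the 12894 genes of the deposited table. Of the 6 libraries, 3 were labelled Hnrnpu knockout, made by Cre deletion of a loxP-flanked allele as the labels describe for the series, and 3 were labelled control. All came from C57BL/6 mice at postnatal day 0, and the epidermis had been separated from the dermis. Control 1 was labelled wild type in genotype, and the label of controls 2 and 3 read "Heterogenous", taken here as heterozygous for the Hnrnpu allele. The labels name neither the promoter that drives Cre nor the Cre status of the controls. Hnrnpu codes for an RNA-binding protein of the nuclear scaffold.

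EGF family ligands are made as membrane-bound precursors, and proteases called sheddases cut them free. Epigen (Epgn), amphiregulin (Areg), epiregulin (Ereg), heparin-binding EGF (Hbegf) and transforming growth factor alpha (Tgfa) bind the EGF receptor, while the neuregulins Nrg1 and Nrg4 bind ERBB3 or ERBB4. Bound receptors pair and signal through RAS and ERK and through PI3K and AKT. In epidermis the EGF receptor is known for keratinocyte proliferation, survival and wound closure.

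Of these ligands that rose in the comparison below, the RefSeq promoter table (GRCm38.p6) held entries for Epgn, Areg and Tgfa. Their windows, from 250 bases before to 50 bases after the gene start, are shown because these genes rose together. Epgn lies on the plus strand at chr5:91027267-91027566, Areg on the plus strand at chr5:91139349-91139648 and Tgfa on the plus strand at chr6:86194972-86195271. Capitals mark matches to TGACGTCA (the cyclic AMP response element, CRE) and to TATAAA, the sequence of a core promoter element. They were marked by sequence alone, whatever their position, and whether a match works as such an element was not tested. The Tgfa window holds neither.
Epgn: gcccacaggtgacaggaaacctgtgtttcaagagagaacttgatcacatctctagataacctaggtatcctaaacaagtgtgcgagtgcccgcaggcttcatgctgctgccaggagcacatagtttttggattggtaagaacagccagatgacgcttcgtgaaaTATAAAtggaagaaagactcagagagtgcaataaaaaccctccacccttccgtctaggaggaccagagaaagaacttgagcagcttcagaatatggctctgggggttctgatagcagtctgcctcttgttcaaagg
Areg: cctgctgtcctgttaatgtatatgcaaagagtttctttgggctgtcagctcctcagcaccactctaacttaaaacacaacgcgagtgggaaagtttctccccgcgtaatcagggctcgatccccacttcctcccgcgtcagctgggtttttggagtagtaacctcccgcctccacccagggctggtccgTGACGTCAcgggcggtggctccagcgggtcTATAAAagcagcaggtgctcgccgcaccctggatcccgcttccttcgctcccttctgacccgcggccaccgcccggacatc
Tgfa: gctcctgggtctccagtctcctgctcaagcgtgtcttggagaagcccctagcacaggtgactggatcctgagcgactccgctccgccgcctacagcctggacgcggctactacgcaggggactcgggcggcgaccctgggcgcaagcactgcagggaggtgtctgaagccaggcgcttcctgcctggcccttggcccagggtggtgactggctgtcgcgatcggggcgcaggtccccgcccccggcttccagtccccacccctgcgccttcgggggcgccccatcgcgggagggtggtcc

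Entries were found for 6 of the 10 members, Nrg4, Egfr and Erbb2 being the others. AP-1 motifs, TGANTCA on either strand, were in 0 of these 6 windows and in 7.81% of all 32851 promoter windows. The ATF4 motif TGATGNAA, on either strand, was also in 0 of the 6 and in 3.97% of all windows. TGACGTCA was in the Areg window, starting 61 bases before the gene start, and in 1.79% of all windows. TATAAA, searched on the gene's strand, started 86 bases before the gene start in Epgn and 31 bases before it in Areg, and 8.32% of all windows held it. The TGACGTCA and TATAAA searches were chosen after the sequences were read, and no motif overlapped another in the windows printed.

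The libraries held an estimated 6460000 to 9120000 assigned reads. Hnrnpu, the targeted gene, had 1565, 1342 and 1036 normalized counts in the knockout-labelled libraries 1 to 3 and 1450.3, 1318 and 1159.9 in controls 1 to 3. These values overlapped and differed by −0.01 ± 0.20 on the log2 scale (95% interval −0.46 to 0.45; limma p after adjustment 0.976). A whole-gene count may miss the loss of a short part, so it is no check of genotype, and every direction given here relies on the labels. Xist, the female-specific silencing RNA, had 5656 and 4758 normalized counts in the knockout-labelled libraries 2 and 3, against 1.87 in the library labelled knockout 1 and at most 3.27 in a control, so the sexes were not balanced between groups. Values for knockout 1 alone against the controls are given below for the members and named genes whose call they end. They are also given where the difference in level moved by over 1.5-fold. Spred2 and the cell type markers were left out of this. The keratinocyte markers Krt1, Krt10, Krt5, Krt14, Dsp, Perp and Trp63 were all measured, summing to 520637 to 744967 normalized counts in knockout-labelled libraries and 682975 to 720553 in controls.

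All 10 members passed the threshold, a limma adjusted p under 0.05 (Benjamini-Hochberg over 12872 tested genes). Of these, 7 were higher and 3 were lower in the knockout-labelled libraries. Across all tested genes 33.6% passed, 17.7% higher and 15.9% lower, and the median log2 difference was −0.02. For all 10 members the values of the groups did not overlap, which held for 50.8% of all tested genes, 25.8% wholly above and 25% wholly below the controls. With equal library totals the calls over all genes were 1440 higher and 3065 lower, against 2279 and 2049 here, and the direction of each member was the same. The members' median log2 difference was 1.64, with a range of −1.65 to 8.09. Log2 differences are of log2(normalized count + 1), labelled knockout minus control, and errors are the moderated SE (n = 3 and 3).

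**Figure D1:**
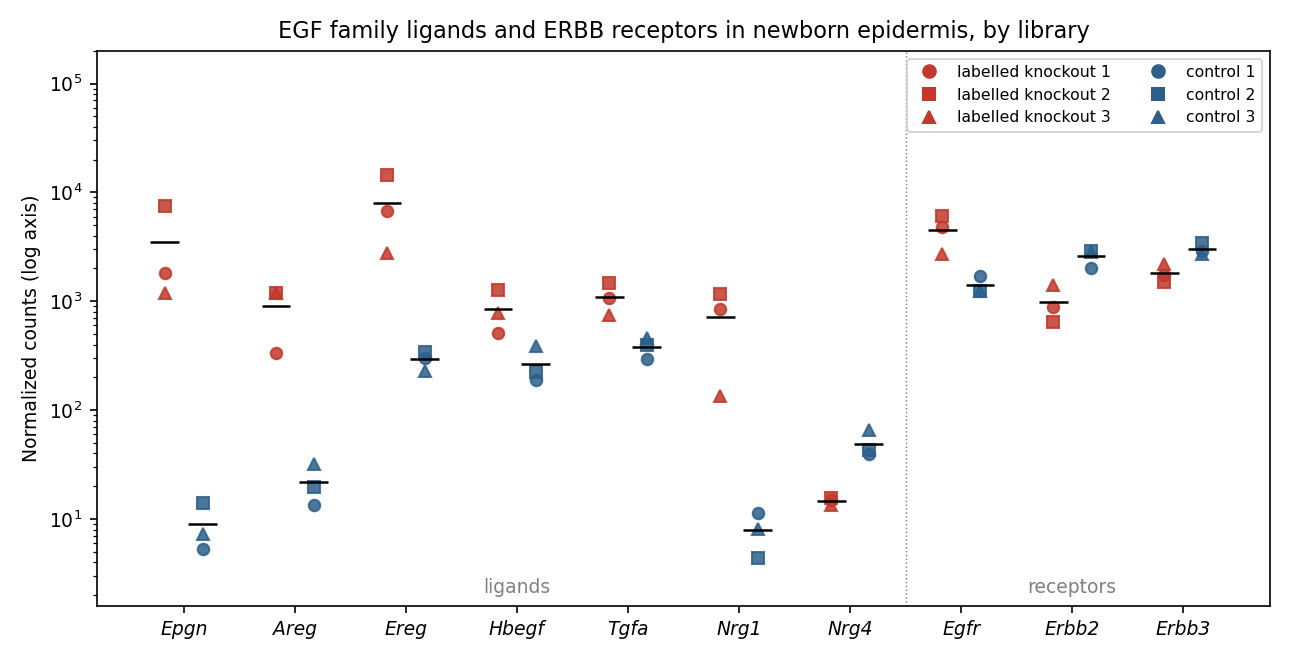
Normalized counts (log axis) of the 7 ligands and 3 receptors in each library, with bars at the group means and 1 marker shape per library number. The groups separate for each gene; Epgn and Nrg1 are near the bottom of the axis in controls (4.43 to 14.2), while Nrg4, Erbb2 and Erbb3 are lower in the knockout-labelled libraries.

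Epgn, the ligand epigen, had 1809, 7437 and 1198 normalized counts in the knockout-labelled libraries 1 to 3, against 5.29, 14.2 and 7.36 in controls 1 to 3. The lowest knockout-labelled library was 84.5 times the highest control. The log2 difference was 8.09 ± 0.63 (95% interval 6.65 to 9.53; limma adjusted p = 1.2e-04), rank 11 from the top of the 12872 tested genes. The control values stand for an estimated 7, 16 and 9 reads, so counting error is large there. Without knockout 2 the log2 difference was 7.31.

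Areg, the ligand amphiregulin, had 335, 1201 and 1179 normalized counts in the knockout-labelled libraries 1 to 3 and 13.6, 19.5 and 31.9 in controls 1 to 3. Knockout 1 was the lowest of its group, and still 10.5 times the highest control. The log2 difference was 5.19 ± 0.51 (limma adjusted p = 3.3e-04). It was 5.80 without knockout 1 and 3.97 for knockout 1 alone against the controls.

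Ereg, the ligand epiregulin, had 6816, 14484 and 2794 normalized counts in the knockout-labelled libraries 1 to 3 and 304, 343 and 229 in controls 1 to 3. This gave a log2 difference of 4.49 ± 0.51 (limma adjusted p = 6.1e-04), and 5.10 without knockout 3. Unlike Epgn and Areg, Ereg stood on an estimated 280.0 to 403 reads in the controls, so counting error is smaller there. A noncoding RNA gene overlaps Ereg in the RefSeq annotation, and reads of the pair cannot be separated without strand.

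Hbegf and Tgfa, present at moderate levels in controls, rose by less. Hbegf had 509, 1257 and 777 normalized counts in the knockout-labelled libraries 1 to 3 and 187, 222 and 386 in controls 1 to 3. Its log2 difference was 1.65 ± 0.37 (limma adjusted p = 0.011), and the lowest knockout-labelled library was 1.32 times the highest control. With knockout 1 alone against the controls the Hbegf difference was 1.01 and no longer past the threshold (limma adjusted p = 0.12).

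Tgfa had 1079, 1470.0 and 741 normalized counts in the knockout-labelled libraries 1 to 3 and 292, 395 and 459 in controls 1 to 3. The log2 difference of Tgfa was 1.49 ± 0.28 (limma adjusted p = 0.0054). Each knockout-labelled library exceeded each control, by 1.61-fold at the least.

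The neuregulins moved apart. Nrg1, a ligand of ERBB3 and ERBB4, had 849, 1174 and 135 normalized counts in the knockout-labelled libraries 1 to 3 and 11.3, 4.43 and 8.17 in controls 1 to 3. The log2 difference was 5.92 ± 0.74 (limma adjusted p = 9.3e-04), or 6.88 without knockout 3, 5.32 without knockout 2 and 6.64 for knockout 1 alone. Among the 10 members Nrg1 varied most within the knockout-labelled libraries, its highest value being 8.68 times its lowest.

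Nrg4, a ligand of ERBB4, had 15.0, 15.5 and 13.5 normalized counts in the knockout-labelled libraries 1 to 3 and 39.6, 42.9 and 65.3 in controls 1 to 3. This gave a log2 difference of −1.65 ± 0.36 (limma adjusted p = 0.0096), and −1.43 without control 3, where it missed the threshold (limma adjusted p = 0.057). These are low counts, an estimated 9 to 16 reads in each knockout-labelled library. The log2 ratio of Nrg1 to Nrg4 within a library, taken of normalized counts plus 1, was 5.04 ± 1.58 in the knockout-labelled libraries and −2.53 ± 0.71 in controls (SD, n = 3 each), a description, since both genes were already separated in opposite directions.

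The receptors also moved apart. Egfr, the receptor of the first 5 ligands, had 4785, 6128 and 2719 normalized counts in the knockout-labelled libraries 1 to 3 and 1697, 1249 and 1248 in controls 1 to 3. The log2 difference was 1.64 ± 0.30 (limma adjusted p = 0.0047). Knockout 3, the lowest of its group, was 1.603 times the highest control.

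Erbb2, the partner receptor with no known ligand of its own, had 892, 647 and 1408 normalized counts in the knockout-labelled libraries 1 to 3 and 2033, 2886 and 2830.0 in controls 1 to 3. Its log2 difference was −1.45 ± 0.29 (limma adjusted p = 0.0069). The library highest for Erbb2 among those labelled knockout, knockout 3, was the lowest for Egfr.

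Erbb3, a neuregulin receptor with little kinase activity of its own, had 1729.8, 1506 and 2212 normalized counts in the knockout-labelled libraries 1 to 3 and 2915, 3448 and 2699.9 in controls 1 to 3. The log2 difference was −0.74 ± 0.20 (limma adjusted p = 0.022). It missed the threshold without control 1 (−0.77; limma adjusted p = 0.062) and without control 2 (−0.65; limma adjusted p = 0.091). Melanocytes and Schwann cells are known to express Erbb3, and in bulk tissue fewer cells of a type and less RNA per cell cannot be told apart. All 10 melanocyte markers (Dct, Tyrp1, Tyr, Pmel, Mlana, Mitf, Sox10, Kit, Slc45a2 and Oca2) were higher in the knockout-labelled libraries, summing to 3178 to 5060 normalized counts against 490 to 732 in controls. Of 7 Schwann cell markers, 5 were in the table, Erbb3 among them, and the 5 summed to 2683 to 2751 normalized counts in the knockout-labelled libraries and 2937 to 3900 in controls, of which Erbb3 itself was the largest part. The part of these cells in the Erbb3 values was not tested.

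Within a library the log2 ratio of Egfr to Erbb2 was 2.42, 3.24 and 0.95 in the knockout-labelled libraries 1 to 3 and −0.26, −1.21 and −1.18 in controls 1 to 3. The mean was 2.20 ± 1.16 in the knockout-labelled libraries and −0.88 ± 0.54 in controls (SD, n = 3 each). The log2 ratio of Egfr to Erbb3 averaged 1.26 ± 0.88 in the knockout-labelled libraries and −1.12 ± 0.34 in controls. These ratios are descriptions too, as Egfr was wholly above and Erbb2 and Erbb3 wholly below the controls. The log2 ratio of Erbb2 to Erbb3 averaged −0.94 ± 0.28 in the knockout-labelled libraries and −0.24 ± 0.29 in controls (exact two-sided permutation p = 0.1, the smallest that 3 against 3 allows). Among the ligands the log2 ratio of Epgn to Ereg averaged −1.37 ± 0.49 in the knockout-labelled libraries and −4.96 ± 0.57 in controls (exact two-sided permutation p = 0.1, unpaired as for the other ratio). Both pairs were formed from members whose differences were already known, so these ratios are descriptions as well.

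**Figure D2:**
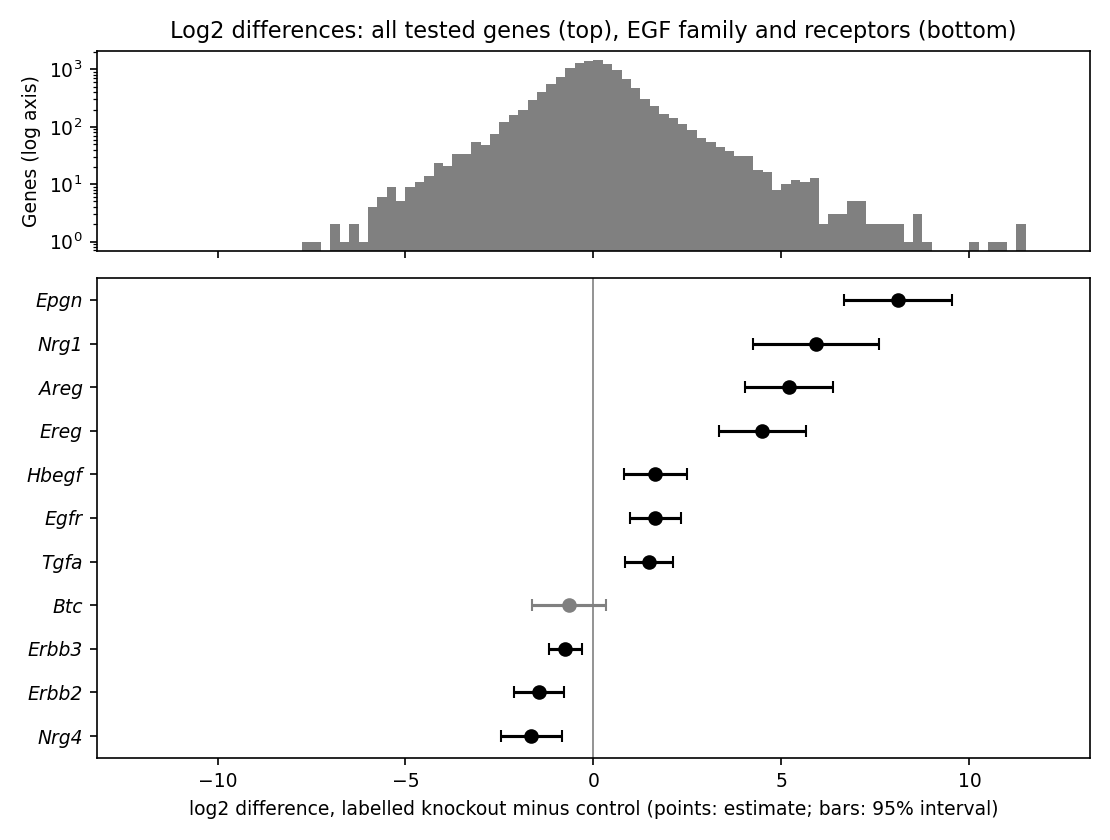
Log2 differences, labelled knockout minus control, of all 12872 tested genes (histogram, log axis for the number of genes) and of the 10 members with Btc in grey (points are estimates, bars 95% intervals). Epgn, Nrg1, Areg and Ereg lie from 4.49 to 8.09, Hbegf, Egfr and Tgfa near 1.49 to 1.65, and Erbb3, Erbb2 and Nrg4 below 0.

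Levels were compared between genes only after division by the median length of a gene's coding transcripts (GENCODE M21), in normalized counts per kilobase. For ligands the betacellulin gene Btc was included, the only measured gene of those listed as other ligands and receptors: Egf, Nrg2, Nrg3 and Erbb4 were not in the table. Btc had 582, 425 and 764 normalized counts in the knockout-labelled libraries 1 to 3 and 1324, 429 and 1312 in controls 1 to 3. Its groups overlapped, control 2 lying within the range of the knockout-labelled libraries, and the log2 difference of −0.66 ± 0.43 did not pass (limma adjusted p = 0.26). It passed without control 2 (−1.198; limma adjusted p = 0.024) and when libraries of adjacent animal numbers were paired as a replicate block (limma adjusted p = 0.048).

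In the knockout-labelled libraries, length-scaled levels were highest for Epgn (2714 ± 2682 per kilobase, SD, n = 3) and Ereg (1946 ± 1439), whose order differed between libraries: Ereg was above Epgn in knockout 1 and below it in knockout 2 and 3. In knockout 3 Areg was the highest, at 970.1 per kilobase. On average Areg followed at 745 ± 406, then Hbegf at 357 ± 159.6, Nrg1 at 272 ± 201, Tgfa at 242.3 ± 80.6 and Btc at 205 ± 58.9, a run of neighbours whose ranges overlapped. Nrg4 was lowest at 10.01 ± 0.73, below the range of every other ligand. With merged exons as the length, an alternative chosen after seeing the data, part of this order turned: Epgn averaged 1926 ± 1903 and Ereg 1946 ± 1439, with Ereg above Epgn in knockout 1 and 3, and Nrg1 averaged 91.3 ± 67.4, below Tgfa and Btc.

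In controls the order was another. Btc came first at 355 ± 179 per kilobase (SD, n = 3), followed by Hbegf at 112 ± 44.6, Tgfa at 84.4 ± 18.6 and Ereg at 70.7 ± 14.0, whose ranges overlapped from gene to gene. Nrg4 was at 33.7 ± 9.53, Areg at 17.8 ± 7.68, Epgn at 6.97 ± 3.62 and Nrg1 at 3.02 ± 1.31; of these neighbours, Epgn and Nrg1 overlapped. The 8 ligands summed to 4325, 11752 and 3398 per kilobase in the knockout-labelled libraries 1 to 3 and to 724, 471 and 855 in controls 1 to 3.

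Epgn made up 36.5% ± 11.4 of the summed ligand level in the knockout-labelled libraries and 1.195% ± 0.998 in controls (SD, n = 3 each). Ereg held 29.3% ± 9.14 in the knockout-labelled libraries and 11.4% ± 5.67 in controls, and Areg 14.4% ± 12.26 in the knockout-labelled libraries and 2.67% ± 0.991 in controls. Btc held 4.59% ± 3.28 in the knockout-labelled libraries and 49.5% ± 16.3 in controls. The Areg share was uneven, 28.6% in knockout 3 against 6.38% and 8.41% in knockout 1 and 2.

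The 3 measured receptors summed to 1189 ± 125 per kilobase in the knockout-labelled libraries and 1230.1 ± 98.0 in controls (SD, n = 3 each), with overlapping ranges. This depended on the length used: with merged exons the sums were 913 ± 22.7 in the knockout-labelled libraries and 1145 ± 109.9 in controls, without overlap. Egfr made up 61.0%, 71.1% and 38.9% of the sum in the knockout-labelled libraries 1 to 3 and 22.5%, 14.2% and 15.8% in controls 1 to 3. Erbb2 held 17.1% ± 8.51 in the knockout-labelled libraries and 41.8% ± 5.90 in controls, and Erbb3 25.9% ± 7.93 in the knockout-labelled libraries and 40.8% ± 3.02 in controls (SD, n = 3 each). With merged exons as the length Egfr held 45.2% in the knockout-labelled libraries and 11.3% in controls. On either length the Egfr share of each knockout-labelled library was above that of each control. The Erbb3 shares overlapped with merged exons, averaging 33.2% in the knockout-labelled libraries and 43.9% in controls. There knockout 3, at 41.0%, was above control 3, at 39.8%.

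**Figure D3:**
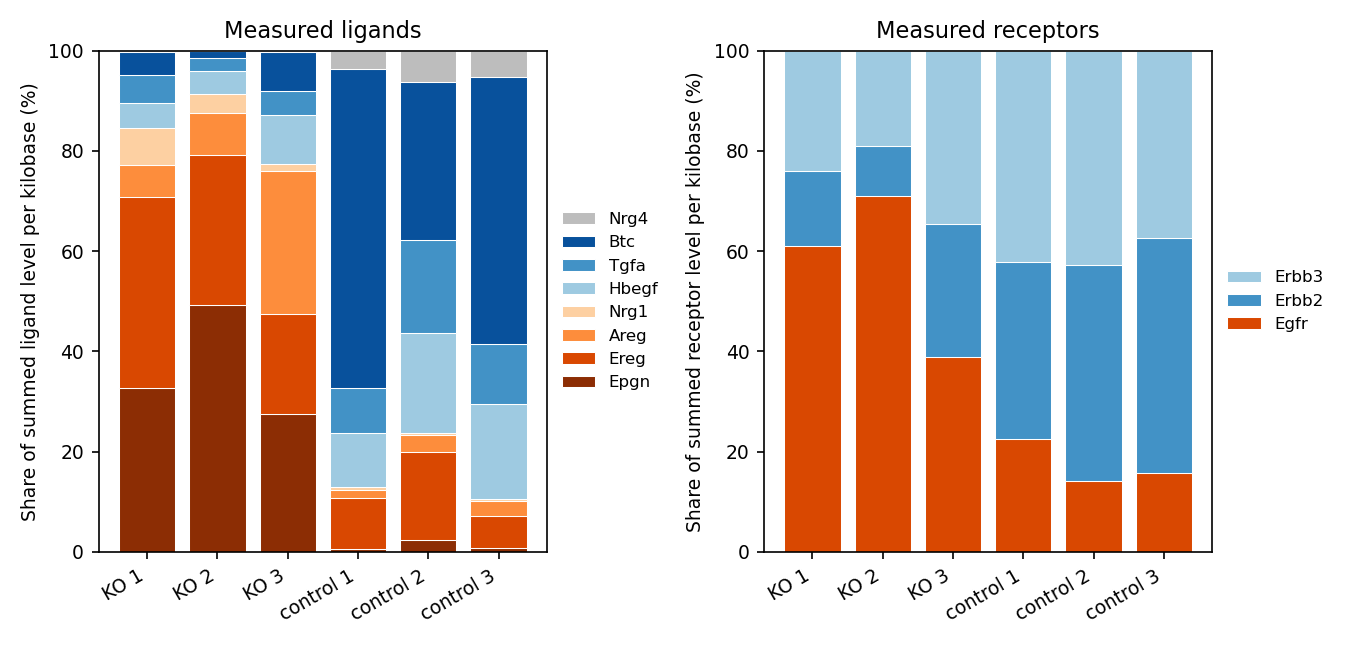
Share of each gene in the summed length-scaled level of 8 ligands (left) and 3 receptors (right), in percent, for the knockout-labelled libraries (KO 1 to 3) and controls 1 to 3. Epgn, Ereg and Areg fill most of the ligand bars of KO 1 to 3 and Btc is the largest block in each control; Egfr takes 38.9 to 71.1% of the receptor bars in KO 1 to 3 and 14.2 to 22.5% in controls.

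Knockout 2 had the highest normalized count of its group for each of the 6 ligands that rose and for Egfr. It had the lowest for Erbb2 and Erbb3. Part of this order depends on scaling, as its normalized total was 10987666, against 8191409 and 8469679 in knockout 1 and 3. Relative to these totals Areg was highest in knockout 3 and Egfr in knockout 1, while the other ligands that rose stayed highest in knockout 2. Knockout 2 was also the shallowest library, with 1 read worth 1.70 normalized counts. Leukocytes are known to make Areg, Ereg and Hbegf, and the 8 of 10 leukocyte markers in the table summed to 1705 normalized counts in knockout 2, 234 in knockout 1 and 433 in knockout 3, against 524 to 816 in controls. Of these 8, Lyz2 was called higher and Cd3e and Csf1r lower. Cd3e, a T cell marker, was at most 3.40 in the knockout-labelled libraries and at least 14.7 in controls, while the myeloid marker Itgam reached 573 in knockout 2. Cd207 and Mpo were not among the genes measured. Without knockout 2 all 10 members kept their call: the log2 differences were 7.31 for Epgn, 4.88 for Areg, 3.92 for Ereg, 1.31 for Hbegf, 1.25 for Tgfa, 5.32 for Nrg1 and 1.38 for Egfr (largest limma adjusted p over the members 0.049, for Erbb3).

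Other cells that a sheet of epidermis could hold were checked in the same way. Dermal fibroblast markers were in the table for 5 of 8 genes, summing to 550 to 692 normalized counts in the knockout-labelled libraries and 705 to 978 in controls, with Col1a1, Col1a2 and Col3a1 higher, Fbln1 lower and Dcn not called. Of 5 endothelial markers Pecam1 was in the table, at 6.54 to 59.5 normalized counts in the knockout-labelled libraries and 2.66 to 5.72 in controls. None of 6 Merkel cell markers was in the table. Among 7 basal keratinocyte markers Krt14 was called higher and Krt15 lower. All 7 summed to 31142 to 125447 normalized counts in the knockout-labelled libraries and 16437 to 44926 in controls. Krt14 alone was 21768 to 115333 of these in the knockout-labelled libraries and 3208 to 10309 in controls. Krt5, Itga6, Col17a1 and Trp63 were lower on average and Itgb4 higher, none of them called. The part of these in the members' values was not tested.

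Epgn, Ereg, Areg and Btc are neighbours on mouse chromosome 5, in this order and with no other protein-coding gene between them in the RefSeq annotation. Of the genes directly on either side, Mthfd2l was not called and Parm1 was lower. Mthfd2l, next to Epgn, had 61.7, 52.7 and 71.0 normalized counts in the knockout-labelled libraries 1 to 3 and 48.3, 54.0 and 41.7 in controls 1 to 3 (log2 difference 0.36 ± 0.26; limma adjusted p = 0.32). Parm1, next to Btc, was lower by −1.72 ± 0.30 (limma adjusted p = 0.0039). Beyond Mthfd2l, the chemokine gene Cxcl2 had 6.54, 631 and 29.9 normalized counts in the knockout-labelled libraries 1 to 3, against 0, 3.54 and 0 in controls 1 to 3. Its fitted log2 difference was 4.995 ± 1.499 (limma adjusted p = 0.034), or 3.21, not past the threshold, without knockout 2 (limma adjusted p = 0.097). With control values at or near 0 it depended on the pseudocount, at 5.68 with 0.5 and 3.41, not past the threshold, with 5 (limma adjusted p = 0.063), and without the trend it missed the threshold (0.054). It moved to 6.399 without knockout 1 and to 5.72 without control 2. The call was also lost without control 1 or control 3 (limma adjusted p = 0.089 for each). With knockout 1 alone Cxcl2 fell short of the filter and was not tested.

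Sheddases and their partners showed no common direction. Of 12 genes tested, 2 were higher and 2 lower, against 17.7% and 15.9% of all genes, and the median log2 difference was −0.17. Adam17, the main sheddase of Areg and Tgfa, averaged 470.2 ± 61.2 normalized counts in the knockout-labelled libraries and 629 ± 76.0 in controls (SD, n = 3 each). Its log2 difference of −0.42 ± 0.18 did not pass (limma adjusted p = 0.11). It passed with equal library totals, quantile normalization and the replicate block of adjacent animals (limma adjusted p = 0.026, 0.040 and 0.046). Adam10, the other major sheddase, differed by −0.20 ± 0.15 (limma adjusted p = 0.33). Of the inactive rhomboid proteins that escort ADAM17, Rhbdf1 was lower by −0.79 ± 0.19 (limma adjusted p = 0.016; 0.054 to 0.057 without control 1, 2 or 3, and 0.12 with knockout 1 alone, at −0.52) and Rhbdf2 differed by −0.14 ± 0.18 (limma adjusted p = 0.57). With equal library totals Adam10 and Rhbdf2 were called lower, at −0.54 and −0.48 (limma adjusted p = 0.040 and 0.041). The beta-secretase Bace2 and the metalloprotease Adam9 were higher by 2.45 ± 0.31 and 1.44 ± 0.33 (limma adjusted p = 9.4e-04 and 0.012). Adam12 was lower by −2.25 ± 0.48 (limma adjusted p = 0.0093).

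Among receptor adaptors and the RAS-ERK relay, 4 of 17 genes were higher and 2 were lower (17.7% and 15.9% of all genes), with a median log2 difference of −0.10. Mapk3, which encodes ERK1, was higher by 1.18 ± 0.22, and the adaptor Shc1 by 1.30 ± 0.29 (limma adjusted p = 0.0053 and 0.011), and the Mapk3 call was lost with knockout 1 alone (0.92; 0.068). The docking adaptor Gab1 was lower by −0.83 ± 0.15 (limma adjusted p = 0.00475), at 727, 703 and 702 normalized counts in the knockout-labelled libraries 1 to 3 and 1262, 1209 and 1326 in controls 1 to 3. Map2k1, which encodes the ERK kinase MEK1, was higher by 0.88 ± 0.23 (limma adjusted p = 0.019), a call lost without control 1 or knockout 2 (0.070 and 0.0525) and with knockout 1 alone (0.77; 0.11). Braf, a kinase of the relay, was lower by −0.50 ± 0.16 (limma adjusted p = 0.045), a call lost without any single library (0.060 to 0.16) and with knockout 1 alone (−0.48; 0.16). With the replicate block, 5 were lower instead of 2.

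In the PI3K-AKT relay 1 of 10 measured genes was higher and 3 were lower, against 17.7% and 15.9% of all genes, with a median of −0.25. The lower genes were those of regulatory subunits: Pik3r1 had 401, 254 and 204 normalized counts in the knockout-labelled libraries 1 to 3 and 863, 1213 and 1028 in controls 1 to 3. Pik3r1 differed by −1.90 ± 0.27 (limma adjusted p = 0.0016), while Pik3r2 differed by −1.28 ± 0.26 and Pik3r3 by −1.52 ± 0.50 (0.0075 and 0.046). Leaving out control 1, 2 or 3 or knockout 1 or 2 ended the Pik3r3 call (limma adjusted p = 0.055 to 0.15), as did knockout 1 alone (−1.30; 0.084). Pdpk1, a kinase upstream of AKT, was higher by 0.65 ± 0.17 (limma adjusted p = 0.019), not past the threshold without control 2 or 3 (0.082 and 0.066) with equal library totals (0.17) or with knockout 1 alone (0.68; 0.051). Pairing by the replicate block gave 3 higher genes instead of 1. On all 6 libraries, 2 genes instead of 3 were lower without the trend, with a robust variance fit or with library weights.

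Of 16 genes listed as receptor inhibitors and ubiquitin ligases, 3 were higher and 2 lower, shares near the 17.7% and 15.9% of all genes. The median was −0.09, and 5 were higher with the replicate block. The list is called inhibitors for short, whatever each gene does to the receptors. Lrig1, a transmembrane protein that promotes the turnover of ERBB receptors, had 186, 54.4 and 124 normalized counts in the knockout-labelled libraries 1 to 3 and 543, 589 and 471 in controls 1 to 3 (log2 difference −2.29 ± 0.40; limma adjusted p = 0.0038). Its relative Lrig3 was lower by −2.31 ± 0.54 (limma adjusted p = 0.014), or −1.63 without knockout 2 and −2.06, not past the threshold, without control 3 (0.051). Errfi1, the cytoplasmic inhibitor MIG6 that feedback from EGFR induces, had 1550.3, 2373 and 1734 normalized counts in the knockout-labelled libraries 1 to 3 and 897, 1327 and 1464 in controls 1 to 3. Its difference of 0.62 ± 0.24 did not pass (limma adjusted p = 0.078; 0.020 with the replicate block). Socs5, a suppressor of cytokine signalling that also acts on EGFR, was higher by 1.61 ± 0.20 (limma adjusted p = 8.6e-04). The phosphatase genes Ptpn2 and Ptpn1 were higher by 0.83 ± 0.22 and 0.57 ± 0.19 (0.020 and 0.048), calls lost without any single control (0.057 to 0.14) and, for Ptpn1, without knockout 2 (0.10). With knockout 1 alone neither passed (0.57 for Ptpn2 and 0.39 for Ptpn1; limma adjusted p = 0.19 and 0.21). Equal library totals also ended the calls of Ptpn2, Ptpn1 and Map2k1 (limma adjusted p = 0.14, 0.28 and 0.064).

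Among genes known to respond to ERK, 10 of 18 tested were higher, against 17.7% of all genes, and the other 8 did not pass, with a median log2 difference of 2.16; with the replicate block 2 were lower, Spry1 and Spred2. Dusp6, a phosphatase that turns off ERK, had 1117, 2411 and 2856 normalized counts in the knockout-labelled libraries 1 to 3 and 149, 243 and 213 in controls 1 to 3. This gave a log2 difference of 3.31 ± 0.35, and that of the ETS factor Etv4 4.24 ± 0.43 (limma adjusted p = 4.9e-04 and 4.0e-04). Phlda1, Fosl1 and Ier3 differed by 3.78 ± 0.45, 3.57 ± 0.47 and 3.43 ± 0.40. The 8 that did not pass included Egr1 and Myc, at 0.59 ± 0.50 and −0.40 ± 0.30 with overlapping groups (limma adjusted p = 0.38 and 0.32). With knockout 1 alone against the controls the log2 differences were 2.49 for Dusp6, 5.05 for Etv4 and 2.85 for Phlda1, and −1.51 for the inhibitor Lrig1. Of the Sprouty genes, feedback inhibitors of receptor signalling, Spry4 was higher by 2.72 ± 0.74, while Spry1 and Spry2 differed by −1.47 ± 0.65 and 0.01 ± 0.34 and did not pass. The Spry4 call, on at most 29.9 normalized counts, was lost without control 2, knockout 1 or knockout 3 (limma adjusted p = 0.067 to 0.091) and with knockout 1 alone (3.38; 0.083). Spry1 was lower with knockout 1 alone (−1.53; limma adjusted p = 0.034).

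**Figure D4:**
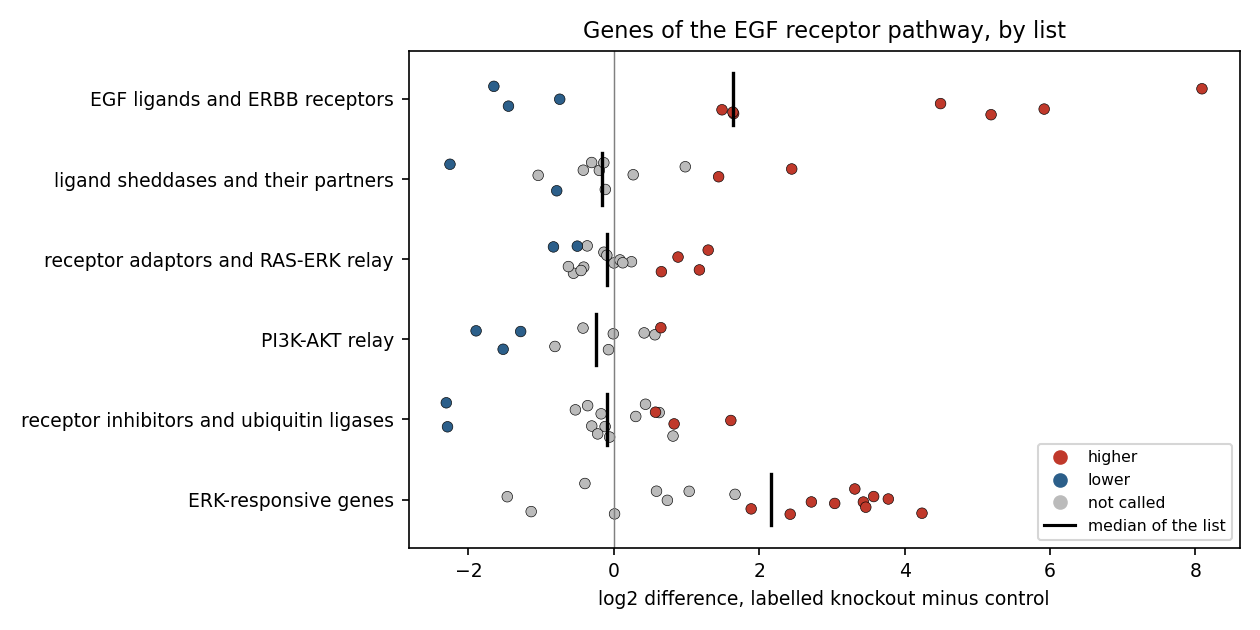
Log2 differences, labelled knockout minus control, of each tested gene in the EGF receptor pathway, by list (points; red higher, blue lower, grey not called; black bars are list medians). Medians are 1.64 for the ligands and receptors and 2.16 for ERK-responsive genes, and lie between −0.25 and −0.09 for the other lists.

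The genes whose pattern over the 6 libraries was most like that of Epgn, by Pearson correlation of log2(normalized count + 1), were Rab31 (r = 0.9998), Maged2 (r = 0.999), Lce3c (r = 0.999), Mafk (r = 0.999) and Lce3e (r = 0.999). These points share their libraries, the groups lie far apart, and all 5 were also highest in knockout 2. Rab31, a small GTPase of vesicle transport, had 510.2, 886 and 425 normalized counts in the knockout-labelled libraries 1 to 3 and 51.3, 71.7 and 61.3 in controls 1 to 3. For Erbb3 the closest were Trim23 (r = 0.996), Ranbp10 (r = 0.995), Rin2 (r = 0.994), Slc27a1 (r = 0.991) and Mn1 (r = 0.990), all lower on average in the knockout-labelled libraries, although Ranbp10 did not pass (−0.25; limma adjusted p = 0.23). Calls of Trim23 were lost without control 1 or 2 (limma adjusted p = 0.053 and 0.066), that of Slc27a1 without control 2 (0.053) and that of Mn1 without control 1, control 2, knockout 1 or knockout 2 (0.067 to 0.10) and with knockout 1 alone (−1.06; 0.058).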

How the data were processed

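The authors deposited 1 table of normalized counts, a signal of at least 0 per gene, in which each of 6 rows matched the title of 1 library. The software named per the submitters' processing notes is TopHat2 2.1.0 and Partek 9.0.20.0202, with mm39 as build; what each did, how values were normalized and whether strand was used are not given there, so reads of a gene and an overlapping or antisense gene cannot be separated. Between 80.4 and 83.5% of values up to 20 reads were whole multiples of 1 step per library (within 0.02 of a step), too few to recover reads, so no count model was used. Reads were estimated as value over step. Symbols were matched for 12771 of 12894 IDs. Each title has its own animal number, and with nothing more stated p-values measure the spread between these libraries.

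From these values log2(value + 1) was tested by limma 3.58.1 in R 4.3.3 (eBayes with a mean-variance trend) for genes above 1 in at least 3 libraries, adjusted by Benjamini-Hochberg at 0.05. The fit was tested on simulated data, and alternatives changed the pseudocount, filter, scaling, variance model or libraries, or blocked adjacent animal numbers. Deviations from group means correlated by 0.37, 0.23 and 0.36 within these adjacent pairs (216 with 217, 241 with 242, 250 with 251), and by −0.28 to −0.072 otherwise. Deviations sum to 0 in each group, so positive values within pairs push the others below 0, and the negative values are no separate support. The pairs meet the bar set for pairing, although no label names a shared litter. The reported tests are unpaired, and the pairs enter as the replicate block alternative. Lengths are from GENCODE M21 and promoters from RefSeq (both GRCm38).

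The members, lists and tests were chosen with earlier results of these data known. Genes named are the members, Hnrnpu, Xist, up to 5 called genes per list by adjusted p with the main inhibitors and sheddases, and the 5 genes most like Epgn and Erbb3, of at least median level. Btc, Braf, Egr1, Myc, Spry1, Spry2, Spry4, Spred2, Cxcl2, Mthfd2l, Parm1 and single cell type markers fall outside this rule and were chosen after their values were seen. Some genes of these lists enter the counts and are not reported here by name.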

Additional observations from a re-analysis of the deposited data

How the results depend on the processing

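Over 17 alternatives the 10 members kept their direction in all 170 results and passed the threshold in 166. The exceptions were Hbegf with knockout 1 alone (1.01), Nrg4 without control 3 (−1.43) and Erbb3 without control 1 (−0.77) or control 2 (−0.65). These lost calls come with fewer samples. Over all fits leaving out 1 library, Nrg4 ran from −1.79 to −1.43 and Erbb3 from −0.90 to −0.62. With equal library totals the median of all genes moved to −0.36, the members lay between −1.98 (Nrg4) and 7.77 (Epgn), and 1440 genes were higher and 3065 lower, against 2279 and 2049 as reported. With knockout 1 alone 1305 genes were higher. Leaving out 1 library gave 1515 to 2300 higher (lowest without control 3) and 1107 to 2164 lower (1155, 1107 and 1116 without control 1, 2 and 3).

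List counts moved as follows. With equal library totals 6 sheddases were lower, 2 relay genes were higher and 6 lower, 0 of the PI3K-AKT relay were higher and 1 inhibitor was higher. With quantile normalization 4 relay genes were lower and 0 of the PI3K-AKT relay were higher, and without the trend 1 relay gene was lower. With the replicate block, which changed no call of a member, Btc was lower (1 gene), 5 relay genes were lower, 3 of the PI3K-AKT relay and 5 inhibitors were higher and 2 ERK-responsive genes were lower. With knockout 1 alone 1 sheddase and 1 relay gene were lower, 1 relay gene, 0 of the PI3K-AKT relay and 1 inhibitor were higher and 1 ERK-responsive gene was lower. Leaving out 1 library gave 0 to 1 lower for Btc, 1 to 2 lower sheddases, 2 to 4 higher and 1 to 2 lower relay genes, 0 to 2 higher in the PI3K-AKT relay, 1 to 4 higher and 1 to 2 lower inhibitors, and 0 to 1 lower ERK-responsive genes. Apart from lost samples, the cause of these moves was not tested. The low control reads of Epgn, Areg and Nrg1 limit how well their differences are measured.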
